A study of Rattus norvegicus with 12 samples.

Results

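The genes described here encode the chains of collagens and laminins, with the nidogens Nid1 and Nid2, and were chosen by their symbols in the table of normalized read counts. Of the 52 rows whose symbol named such a chain, 49 were kept because 3 or more of the 12 libraries had a value of 10 or higher, a limit that 13496 of the 15939 rows met. They were divided into 10 chains of fibrillar collagens, 19 chains of basement membranes, 4 chains described in neurons (Col13a1, Col17a1, Col19a1 and Col23a1) and 16 other collagen chains. Col10a1, Col6a5 and Col6a4 had a row but did not meet it, and Col6a4 came nearest, with a highest value of 12.8 (YP1) and 2 libraries at 10 or more. Nearest inside the limit was Col22a1, with 9 such libraries, and Col1a2, Col15a1, Col25a1, Col4a4, Col6a3 and Hspg2 were not analysed here.

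RNA was sequenced from the medial prefrontal cortex of Wistar rats in a design of age by task performance with 4 groups of 3 libraries. Young rats were 3 months old and aged rats 22 months old. Performing rats had been trained and tested for attention in an operant task, whereas nonperforming rats of the same age were placed in the same context without ever doing the task. Each library is named by age (Y or A for aged), by performance (N for nonperforming, P for performing) and by a number from 1 to 3, so that AN2 is the second listed aged nonperforming library. The labels do not say that each library came from a separate animal, so p-values measure the spread between these libraries. Reads summed over the genes of the table ranged from 22189094 (AP1) to 42205582 (YP3). YN3 came second with 36657127, and every other library had at most 26937210 (YN1).

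Collagen chains wind around each other into triple helices, either of identical chains or of partner chains from different genes. Fibrillar collagens assemble into fibrils of connective tissue, and in the brain they are found mainly in the meninges and around larger vessels. Basement membranes are thin sheets of type IV collagen, laminins (each an alpha, a beta and a gamma chain) and nidogens, which lie under the endothelium of brain vessels, around mural cells and beneath the pial surface. A few collagens, several of them spanning the cell membrane, are made by neurons, among them collagen XIX of interneurons.

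Promoter sequences of RefSeq (rat build GRCr8, the 250 bases before the first start site listed for a gene) matched 38 of the 49 chains. Those shown belong to Col5a2 and Col9a2, which were highest in the same 3 libraries (YP2, AP1 and AP3), to Col11a1, which shared that pattern, and to Col23a1, a neuronal chain that did not. Their positions are chr9:55090152-55090401 on the minus strand (Col5a2), chr5:139892548-139892797 on the plus strand (Col9a2), chr2:204508886-204509135 on the plus strand (Col11a1) and chr10:36050077-36050326 on the plus strand (Col23a1). The last sequence is the 76 bases between the start sites of Col4a2 (minus strand) and Col4a1 (plus strand), chr16:84885521-84885596, which these partner chains share as a bidirectional promoter. Capitals mark the GC box (GGGCGG, or CCGCCC on the other strand) and the CCAAT box (CCAAT, or ATTGG).
Col5a2: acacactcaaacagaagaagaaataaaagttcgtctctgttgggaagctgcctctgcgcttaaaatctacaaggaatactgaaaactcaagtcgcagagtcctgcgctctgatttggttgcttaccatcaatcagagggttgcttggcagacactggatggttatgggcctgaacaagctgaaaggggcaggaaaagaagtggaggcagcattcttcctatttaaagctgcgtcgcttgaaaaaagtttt
Col9a2: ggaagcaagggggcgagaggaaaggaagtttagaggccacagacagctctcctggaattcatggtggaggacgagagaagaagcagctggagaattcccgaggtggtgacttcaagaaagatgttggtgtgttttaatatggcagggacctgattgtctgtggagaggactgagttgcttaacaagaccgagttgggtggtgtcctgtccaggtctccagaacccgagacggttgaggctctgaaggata
Col11a1: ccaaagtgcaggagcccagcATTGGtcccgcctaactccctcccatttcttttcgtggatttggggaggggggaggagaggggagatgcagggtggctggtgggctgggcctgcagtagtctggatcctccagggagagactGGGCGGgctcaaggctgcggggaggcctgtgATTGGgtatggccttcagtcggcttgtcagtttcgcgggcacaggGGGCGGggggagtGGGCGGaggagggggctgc
Col23a1: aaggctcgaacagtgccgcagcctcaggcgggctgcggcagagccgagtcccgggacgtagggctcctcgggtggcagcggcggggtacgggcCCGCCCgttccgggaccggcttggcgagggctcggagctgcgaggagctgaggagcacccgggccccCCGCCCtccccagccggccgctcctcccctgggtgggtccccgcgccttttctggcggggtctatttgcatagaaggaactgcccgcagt
between Col4a2 and Col4a1: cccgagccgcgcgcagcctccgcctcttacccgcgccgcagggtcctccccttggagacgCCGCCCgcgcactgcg

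Col11a1 held 3 GC boxes and 2 CCAAT boxes and Col23a1 held 2 GC boxes, while the windows of Col5a2 and Col9a2 held no match to either motif or to the TATA box (TATAAA, or TTTATA). The shared Col4a1 and Col4a2 stretch held 1 GC box. Among the 38 chains, 25 (65.8%) held a GC box, against 30.5% of 33469 promoters of the same length. A CCAAT box stood in 10 (26.3%, against 34%) and a TATA box in 3 (7.89%, against 12.9%). The 33469 promoters were neither limited to the genes tested here nor reduced to a single promoter per gene, as the 38 were. The shares therefore come from unlike sets, and no trait of the chains is read from them. These matches describe the letters of the windows, and the chains that were high in the same libraries included windows with and without them.

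Libraries that stood apart from the rest touched many of the results and are given first. The gene Cdhr1, whose cadherin is typical of output neurons of the olfactory bulb, was highest in AP3 (8405), YP2 (6016) and AP1 (5231), followed by AP2 (1866), and lay between 297 and 855 elsewhere. Igf2, a growth factor of the meninges, was at 3696, 2426 and 4287 in YP2, AP1 and AP3. In the other libraries Igf2 was at 1956, 592 and 1316 (YN1 to YN3), 247 and 1218 (YP1 and YP3), 157, 218 and 186 (AN1 to AN3) and 703 (AP2). The GABA transporter gene Slc6a13, also meningeal, was highest in the same 3 libraries at 408, 306 and 619, and between 49.4 and 83.1 in the aged nonperforming group. The summed level of 9 meningeal fibroblast markers ranged from 1651 to 4241 in young nonperforming, 1028 to 8466 in young performing, 786 to 1201 in aged nonperforming and 2059 to 9436 in aged performing libraries, and none of the 9 was at 0 in any library. For 4 olfactory bulb markers the sum ranged from 479 to 885, 566 to 8093, 534 to 728 and 2495 to 11347 in the same order of groups, with Tbx21 at 0 in 1 library. Transthyretin RNA of the choroid plexus (Ttr) was at 37304 in YN3, with a highest value of 91.9 elsewhere. Cldn5, a tight junction gene of brain endothelium, was at 8624 in YN3 and 4741 in YP3, against 1669 to 2875 in the other 10 libraries. The pericyte receptor gene Pdgfrb ranged from 649 (YN3) to 1367 (YP2). The 6 markers of cortical projection neurons were present in every library, with a summed level from 26406 (AP3) to 50019 (AN2). In bulk tissue, fewer cells of a type and less RNA per cell cannot be told apart.

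**Figure D1:**
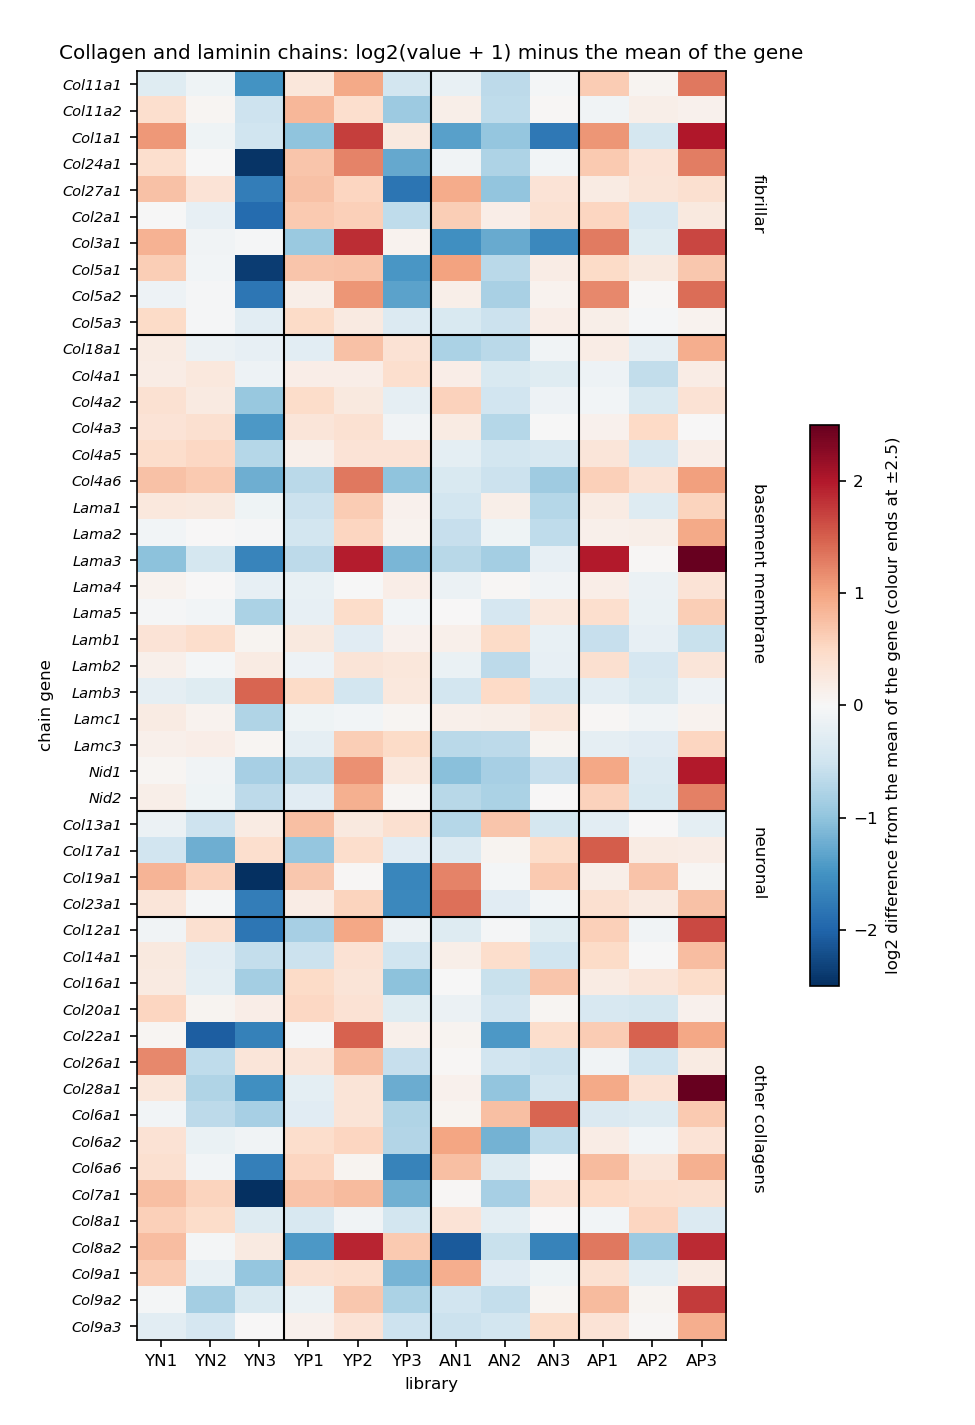
Heat map of 48 of the 49 chain genes (rows, by class) in the 12 libraries (columns, by group), as the difference on the log2 scale between a library's value and the mean of the gene. Red cells gather in YP2, AP1 and AP3 among fibrillar and basement membrane chains, and blue cells in YN3 and YP3 among fibrillar, neuronal and other collagens.

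For 12 of the 49 chains (24.5%) the 3 highest libraries were YP2, AP1 and AP3, against 6.48% of all genes tested. These were 4 of 10 fibrillar chains (Col1a1, Col3a1, Col5a2 and Col11a1), 5 of 19 basement membrane chains (Lama3, Lama5, Lamb2, Nid1 and Nid2), none of the 4 neuronal chains and 3 of 16 other collagens (Col8a2, Col9a2 and Col12a1). Only Lamb1 among the 49 had its 3 lowest values there, against 6.92% of all genes. YN3 and YP3 were the 2 lowest libraries for 15 chains (30.6%, against 19% of all genes). They were 5 fibrillar chains (Col2a1, Col5a1, Col5a2, Col24a1 and Col27a1), 2 of basement membranes (Col4a6 and Lama3), 2 neuronal chains (Col19a1 and Col23a1) and 6 others. No chain had its 2 highest values in YN3 and YP3, against 15.4% of all genes. Both library sets were chosen after the values were seen, so these counts describe the 12 libraries and carry no test, and the part of the marker levels in them was not tested.

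The comparison of performance in aged rats asked how task experience and testing differed from context alone at 22 months, and it held the chains with the largest differences. Fibrillar chains of loose connective tissue (Col3a1, Col1a1), the laminin linker Nid1 and the alpha chains Lama2 and Lama3 were higher in aged performing libraries, while the beta chain Lamb1 was lower. No chain passed the limma test at an adjusted p under 0.05 (Benjamini-Hochberg over all 13496 genes), nor did any other gene. At an unadjusted p under 0.05 there were 12 of 49 chains, 11 of them higher, against 9.46% of all genes. edgeR on the recovered reads also called none, DESeq2 called 3 chains (Col1a1, Col3a1 and Nid1, against 0.659% of all genes), and limma with library quality weights called 7 (against 9.98% of all genes). The count of 12 was 7 without AP1, 4 without AP3 and 5 without AN2. The groups did not overlap in 12 chains that were higher and 2 that were lower, where the background over all genes was 10.7% higher and 10.8% lower.

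Col3a1 (ENSRNOG00000003357), the chain of type III collagen that accompanies type I in soft tissues, was at 83.1, 101 and 78.1 in AN1 to AN3 and at 597, 197 and 772 in AP1 to AP3. In young rats Col3a1 was at 443, 227 and 237 (YN1 to YN3) and at 126, 872 and 257 (YP1 to YP3). All 3 aged nonperforming libraries lay below the other 9, and the young groups overlapped fully. The difference for performance in aged rats was 2.36 on the log2 scale (SE 0.64, 5.12-fold on the scale of value plus 1, limma adjusted p = 0.5, unadjusted 0.0036). Performance in young rats differed by 0.08 (SE 0.64), and the interaction of age and performance was 2.27 (SE 0.91, limma adjusted p = 1.0, unadjusted 0.029). Without YP2, AP1 and AP3, which leaves AP2 as the lone aged performing library with its spread taken from the other groups, the aged difference was 1.17. AP2 itself lay above AN1 to AN3 in summed olfactory bulb markers (2495, against 534 to 728). The same held for summed meningeal markers (2059, against 786 to 1201). Every aged difference given without those 3 libraries rests on AP2 in this way.

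Col1a1 (ENSRNOG00000003897), the main chain of type I collagen, was at 82, 108 and 60.3 in AN1 to AN3 and at 451, 154 and 845 in AP1 to AP3. Its young values were 446, 196 and 149.8 (YN1 to YN3) and 104, 699 and 250.2 (YP1 to YP3). As for Col3a1, the aged nonperforming libraries were lowest, except that YP1 lay within their range. The aged difference was 2.25 (SE 0.72, limma adjusted p = 0.5) with all libraries and 0.92 without YP2, AP1 and AP3. Igf2 and Slc6a13 were likewise lowest in the aged nonperforming libraries and highest in YP2, AP1 and AP3. All 9 meningeal markers were higher in aged performing than in aged nonperforming libraries (median 1.78). So were all 4 olfactory bulb markers (median 3.04) and 8 of 10 mural markers (median 0.40), while 8 of 9 endothelial markers were lower (median -0.23). The part of these markers in the collagen difference was not tested.

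Nid1 (ENSRNOG00000002461), which links laminin to type IV collagen, was at 137, 159 and 189 in AN1 to AN3 and at 555, 222 and 1114 in AP1 to AP3. In young rats Nid1 was at 294, 265 and 159.7 (YN1 to YN3) and at 175, 622 and 339 (YP1 to YP3). The aged groups did not overlap, and the young ones did. The aged difference was 1.68 (SE 0.55, limma adjusted p = 0.5), and 0.46 without YP2, AP1 and AP3. Nid2, its paralog, was higher by 0.97 (SE 0.44) with overlapping groups, by 0.59 without AP3 and by 0.11 without YP2, AP1 and AP3.

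Among laminin alpha chains, Lama2, the muscle and glial limiting membrane chain, was at 107, 149 and 103 in AN1 to AN3 and at 176, 178 and 311 in AP1 to AP3. Its values were 152, 162 and 158 in YN1 to YN3 and 117, 234 and 169.9 in YP1 to YP3. Lama2 thus lay below every young nonperforming library in all 3 aged nonperforming libraries, and above them in all 3 aged performing ones (aged difference 0.85, SE 0.29, limma adjusted p = 0.5). Without YP2, AP1 and AP3 the difference was 0.59. Lama1, the alpha chain of the pial and early embryonic basement membrane, was at 112, 109 and 86 (YN1 to YN3), 63.1, 143 and 99.3 (YP1 to YP3), 66.9, 102 and 56.3 (AN1 to AN3) and 107, 73.5 and 136 (AP1 to AP3). Lama1 overlapped between groups in all 4 comparisons within an age or performance level. Lama3, an epithelial chain, was at 282, 288 and 460.4 in YP2, AP1 and AP3 and between 22.3 and 73.5 in the other 9 libraries, and its aged difference was 2.15 with those 3 and 0.62 without them.

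Lamb1, the widespread laminin beta chain, went the other way. It was at 666, 846 and 537 in AN1 to AN3 and at 409.6, 527 and 414 in AP1 to AP3, so that the aged groups did not overlap (log2 difference -0.59, SE 0.20, limma adjusted p = 0.5). Young values of Lamb1 were 773, 823 and 639 (YN1 to YN3) and 719, 497 and 655 (YP1 to YP3). The lowest young value was that of YP2, and the aged difference without YP2, AP1 and AP3 was -0.35. The other chain that was lower without overlap in aged rats was the gamma chain Lamc1. Its values were 813, 822 and 909 in AN1 to AN3 and 758, 696 and 787 in AP1 to AP3. Lamb2, a beta chain of vessels and neuromuscular synapses, was at 1399, 1002 and 1369.8 in AN1 to AN3 against 1710.2, 1517 and 1812 in YN1 to YN3, without overlap (-0.43, SE 0.22, and -0.27 without AN2).

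**Figure D2:**
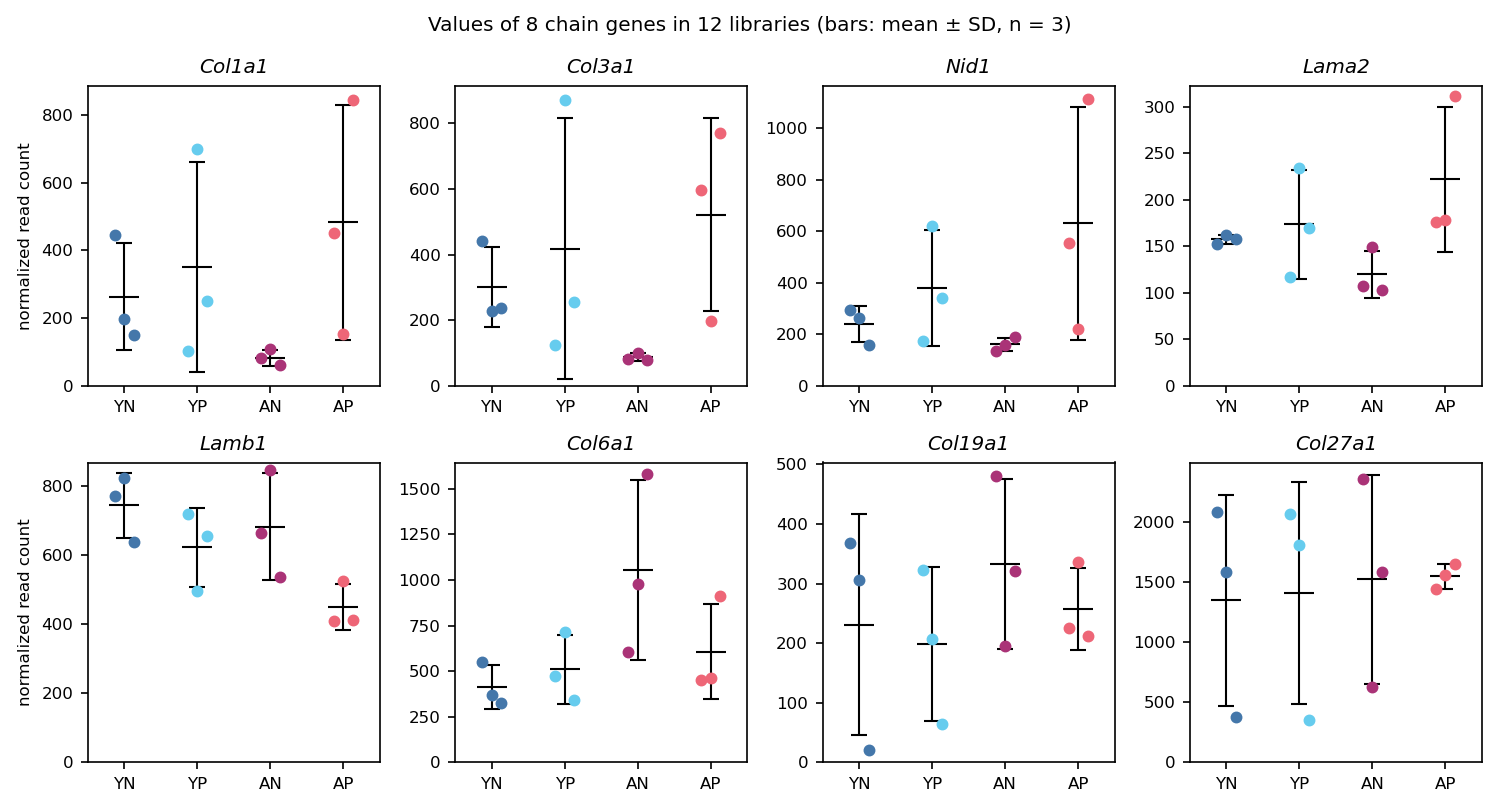
Normalized read counts (linear axis from 0) of 8 chain genes, 1 dot per library in each of the 4 groups, with bars for mean ± SD (n = 3). By group mean, Col1a1 and Col3a1 are lowest in the aged nonperforming group, Lamb1 is lowest in the aged performing group and Col6a1 is highest in the aged nonperforming group, and Col19a1 and Col27a1 have their lowest dots in YN3 and YP3.

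The type IV collagen chains Col4a1 (ENSRNOG00000016281) and Col4a2 (ENSRNOG00000023972), the backbone of every basement membrane, differed little with performance in aged rats. Col4a1 was at 1159.7, 1233 and 937 (YN1 to YN3), 1139, 1153 and 1377 (YP1 to YP3), 1144, 789 and 829 (AN1 to AN3) and 929.7, 663 and 1162 (AP1 to AP3). Its change with performance in aged rats was -0.02 (SE 0.22), and its age changes were -0.28 in nonperforming and -0.45 in performing rats (SE 0.22 for each), all with overlapping groups. The age change of Col4a1 in nonperforming rats ran from -0.45 without AN1 to -0.18 without AN2. In performing rats it was -0.23 without AP2 and -0.92 without YP2, AP1 and AP3. Col4a2 was at 1405, 1262 and 561 (YN1 to YN3), 1479, 1284 and 925 (YP1 to YP3), 1602, 771 and 993 (AN1 to AN3) and 1025, 828 and 1398 (AP1 to AP3). Its differences ranged from -0.19 (age in performing rats) to 0.27 (performance in young rats), with an SE of 0.37. Col18a1, a heparan sulfate collagen of vessels and source of endostatin, was at 223, 242 and 364 in AN1 to AN3 and at 437, 331 and 723 in AP1 to AP3. In young rats Col18a1 was at 443, 350.3 and 333 (YN1 to YN3) and at 320.2, 642 and 494 (YP1 to YP3). AN3 and AP2 overlapped, and the aged difference was 0.80 (SE 0.32, limma unadjusted p = 0.029). That of Col18a1 was 0.49 without AP3 and 0.295 without YP2, AP1 and AP3.

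By class, performance in aged rats gave higher estimates for 9 of 10 fibrillar chains (median 0.65), 13 of 19 basement membrane chains (0.39), 2 of 4 neuronal chains (0.04) and 13 of 16 other collagens (0.47). The median over all genes tested was -0.004. The 12 chains that were higher without overlap were 4 fibrillar (Col1a1, Col3a1, Col11a1, Col24a1), 4 basement membrane (Nid1, Lama2, Lama3, Col4a6) and 4 others (Col7a1, Col9a2, Col22a1, Col28a1), and none was neuronal. Col11a1 and Col24a1 were counted as neuronal in an alternative grouping, so this absence rested on the classes used. The neuronal median was at -0.16 under quantile normalization, so its sign depended on the scaling. Without YP2, AP1 and AP3 the medians were 0.26 for fibrillar, -0.03 for basement membrane and 0.13 for neuronal chains, and 1 of 49 chains had an unadjusted p under 0.05. Differences between the classes were not tested.

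**Figure D3:**
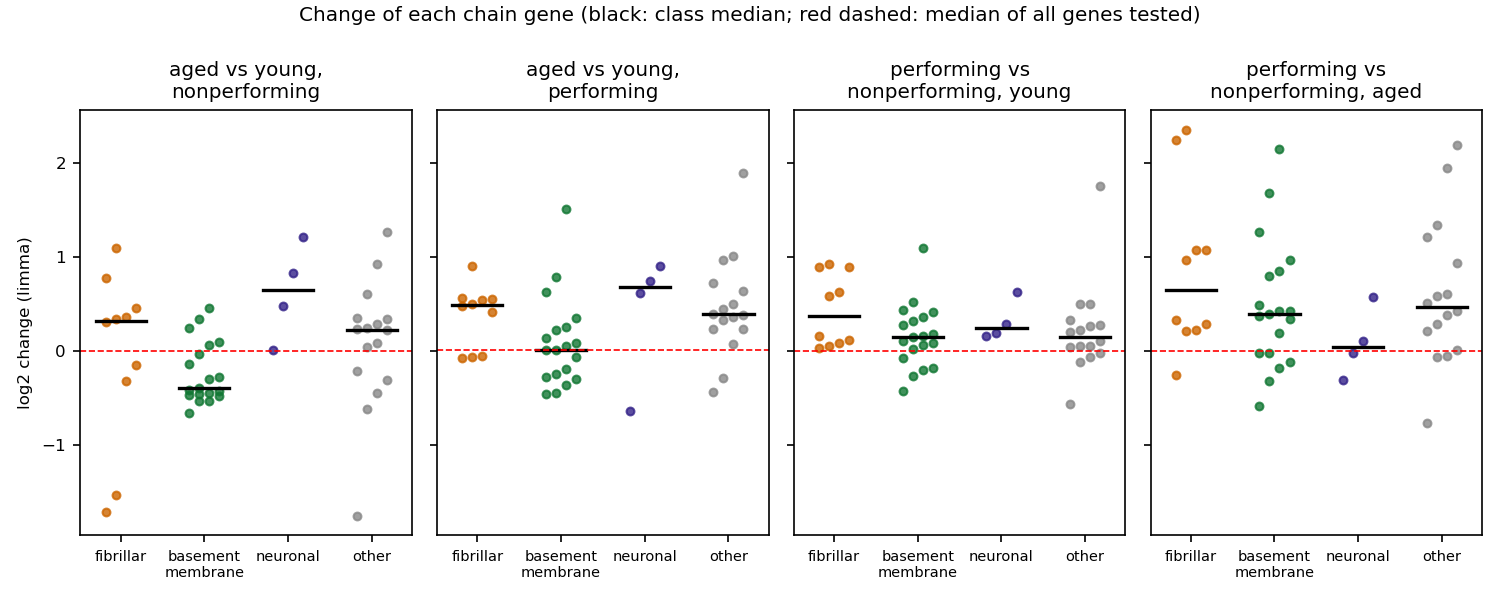
Log2 change of each chain gene (1 dot per gene, limma) in the 4 comparisons within an age or performance level, by class, with the class median as a black line and the median of all genes tested as a red dashed line. Basement membrane chains lie mostly below the dashed line for age in nonperforming rats (median -0.39) and above it for performance in aged rats (median 0.39).

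Age in nonperforming rats, 22 against 3 months without the task, gave another order of the classes. Basement membrane chains were lower in the aged libraries for 14 of 19 (median -0.39), while fibrillar chains were higher for 6 of 10 (0.32) and other collagens for 11 of 16 (0.23). Neuronal chains were higher for 4 of 4 (median 0.65), with changes from 0.01 to 1.21 and overlapping groups in each. The median over all genes was 0.006. No chain passed the limma test, 2 of 49 had an unadjusted p under 0.05 (against 3.17% of all genes), and neither edgeR nor DESeq2 (0.0519% of all genes) called a chain. The groups did not overlap in 2 chains that were higher (Col6a1 and Col2a1) and in 6 that were lower (Col1a1, Col3a1, Col8a2, Col20a1, Lama2 and Lamb2). The background was 3.96% of all genes for higher and 4.26% for lower. This comparison and that of performance in aged rats share the aged nonperforming libraries.

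The fibrillar and neuronal medians rested on YN3. YN3 and YP3 were left out because they were low in many fibrillar chains, so that leaving them out raises the young level of those chains by construction. Without YN3 alone the medians were -0.42 and 0.20. Without YN3 and YP3, 9 of 10 fibrillar chains were lower with age in nonperforming rats and the basement membrane median was -0.41. The lower level of Col1a1 (-1.53, SE 0.72) and Col3a1 (-1.72, SE 0.64) was as large without these libraries, at -1.85 and -1.86. YN1 stayed in that fit and raised the young level of both chains. It was at 446 for Col1a1, against 196 and 149.8 in YN2 and YN3, and at 443 for Col3a1, against 227 and 237. YN1 also had the highest meningeal score of its group, 0.58 against -0.39 and -0.07. The 9 meningeal markers were also all lower with age in nonperforming rats (median -0.87), as were all 9 endothelial markers (median -0.49) and 8 of 10 mural markers (median -0.40). The endothelial score (mean over markers of the log2 difference from the mean of the gene) was 0.14, 0.20 and 0.73 in YN1 to YN3. In AN1 to AN3 it was -0.01, 0.05 and -0.31, so the endothelial median also rested in part on YN3. The part of these markers in the change of the chains was not tested.

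Col6a1, a chain of the microfibrils of collagen VI that surround vessels and other cells, had the smallest p for age in nonperforming rats. It was at 552, 367 and 325 in YN1 to YN3 and at 605, 976 and 1579 in AN1 to AN3, without overlap (1.27, SE 0.40, limma adjusted p = 0.73, unadjusted 0.0084). In performing rats Col6a1 was at 471, 717 and 341 (YP1 to YP3) and at 451, 461 and 910.0 (AP1 to AP3), which overlapped. Its partner Col6a2 did not follow in those libraries, at 1132, 254 and 372 in AN1 to AN3 and 741, 512 and 539.9 in YN1 to YN3.

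Among the neuronal chains, Col19a1 (ENSRNOG00000012759), a collagen of interneurons, was at 368, 305 and 20.7 (YN1 to YN3), 323, 207 and 64.9 (YP1 to YP3), 480.2, 196 and 321 (AN1 to AN3) and 225, 336 and 211 (AP1 to AP3). YN3 and YP3 lay far below the other 10 libraries, which ranged from 196 to 480.2. The age change of Col19a1 in nonperforming rats was 1.21 (SE 0.93) with all libraries and -0.11 without YN3 and YP3. Col23a1, a membrane-spanning chain, was at 158, 123 and 37.6 (YN1 to YN3), 145, 187 and 40.7 (YP1 to YP3), 332, 104 and 121 (AN1 to AN3) and 168, 148 and 211 (AP1 to AP3). It showed the same low pair of libraries, and its age change in nonperforming rats went from 0.83 (SE 0.65) to 0.21 without them, and was 0.31 without AN1. These are also the libraries highest in Cldn5. The summed level of 5 striatum markers was highest in YP3 (6772), followed by AN3 (4093) and YN3 (3705). That of 5 oligodendrocyte markers was highest in YN3 (370681), followed by AN3 (295828) and YP3 (274478). The part of any of these markers in the chain levels was not tested.

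Col13a1, a membrane-spanning collagen of adhesion sites and neuromuscular synapses, did not share that pattern. It was at 61.6, 47.1 and 79.1 in YN1 to YN3 and at 116, 81.6 and 90.4 in YP1 to YP3, so that the young groups did not overlap (0.63, SE 0.35). In aged rats Col13a1 was at 41.6, 112 and 50.4 (AN1 to AN3) and at 56.5, 68.8 and 57.3 (AP1 to AP3), below all young performing libraries in the latter group (-0.64, SE 0.35). Col17a1, a hemidesmosome collagen, had low values, from 6.43 (YN2) to 48.8 (AP1).

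For age in performing rats, 35 of 49 chains had higher estimates in the aged libraries, with a class median of 0.49 for fibrillar, 0.01 for basement membrane, 0.68 for neuronal and 0.39 for other collagens, against 0.008 over all genes. None passed the limma test, 3 had an unadjusted p under 0.05 (against 3.45% of all genes), and edgeR and DESeq2 called no chain. The groups did not overlap in 1 chain that was higher (Col28a1, background 8.63%) and 1 that was lower (Col13a1, background 7.34%), shares below those over all genes. Without YP3 the fibrillar median was -0.22, the neuronal one 0.02, and 25 chains were higher. The basement membrane median was at -0.05 under quantile normalization. Without YP2, AP1 and AP3 it was -0.24, with 4 chains higher and 15 lower. It was 0.02 when YN3 and YP3 were left out as well.

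Col28a1, a von Willebrand domain collagen of nerve, was at 27.6, 41.4 and 13.4 in YP1 to YP3 and at 64.2, 42.7 and 312 in AP1 to AP3 (1.89, SE 0.72, limma adjusted p = 0.89, unadjusted 0.023). Its nonperforming values were 40.4, 19.3 and 10.8 (YN1 to YN3) and 35.8, 16.2 and 23.7 (AN1 to AN3), so that AP3 alone stood far above the rest. Without AP3 the age change of Col28a1 in performing rats was 1.04. Col9a2, a chain of the fibril-associated collagen IX, was at 302, 539 and 194 (YP1 to YP3) and 587, 355 and 1131 (AP1 to AP3), against 325, 187 and 259.6 (YN1 to YN3) and 242, 222 and 349.9 (AN1 to AN3). Its changes were 0.96 for age in performing rats and 1.21 for performance in aged rats (SE 0.44 for each), 0.53 and 0.77 without AP3, and 0.55 and 0.41 without YP2, AP1 and AP3. The former was 0.61 without YP3. Lamb1 was the remaining chain with an unadjusted p under 0.05 for age in performing rats (-0.46, SE 0.20).

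For performance in young rats, estimates were higher in performing libraries for 40 of 49 chains, with class medians of 0.37 for fibrillar (10 of 10 higher), 0.14 for basement membrane, 0.24 for neuronal and 0.15 for other collagens, against -0.004 over all genes. No chain passed the limma test, 1 had an unadjusted p under 0.05 (Col22a1, against 1.21% of all genes), and edgeR and DESeq2 called no chain. Col13a1 was the 1 chain higher without overlap (background 2.94%), and 1 chain was lower without overlap (background 1.87%). Without YP2, AP1 and AP3, 26 chains were higher and 23 lower, and the fibrillar median was 0.03. Without YN3, 21 chains were higher and 28 lower.

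Col22a1, a collagen of tissue junctions, was at 12.5, 2.14 and 3.07 in YN1 to YN3 and at 11.8, 35.5 and 13.4 in YP1 to YP3 (1.76, SE 0.67, limma adjusted p = 1.0, unadjusted 0.023). In aged rats Col22a1 was at 12.7, 3.82 and 16.8 (AN1 to AN3) and at 19.3, 35.6 and 24.7 (AP1 to AP3), without overlap. In young rats only YN1 reached the performing values, and all values were low, so that a few reads set each of them. Averaged over both ages its difference was 1.55, with an adjusted p of 0.48 by limma.

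Col11a1, a fibrillar chain that controls fibril width, was at 281, 324 and 123 (YN1 to YN3), 422, 669 and 255 (YP1 to YP3), 306, 221 and 338 (AN1 to AN3) and 544, 365 and 865 (AP1 to AP3). Its difference with performance was 0.89 in young and 0.97 in aged rats (SE 0.44 for each), without overlap in aged rats only, and 0.55 and 0.36 without YP2, AP1 and AP3. The young difference of Col11a1 was 0.46 without YN3. Col24a1, a fibrillar chain of developing bone and cornea, was at 168, 125 and 22.3 (YN1 to YN3), 204, 299 and 51.6 (YP1 to YP3), 118, 73.5 and 119.6 (AN1 to AN3) and 199, 160.1 and 308 (AP1 to AP3). It combined both library patterns, lowest in YN3 and YP3 and high in AP3 and YP2.

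**Figure D4:**
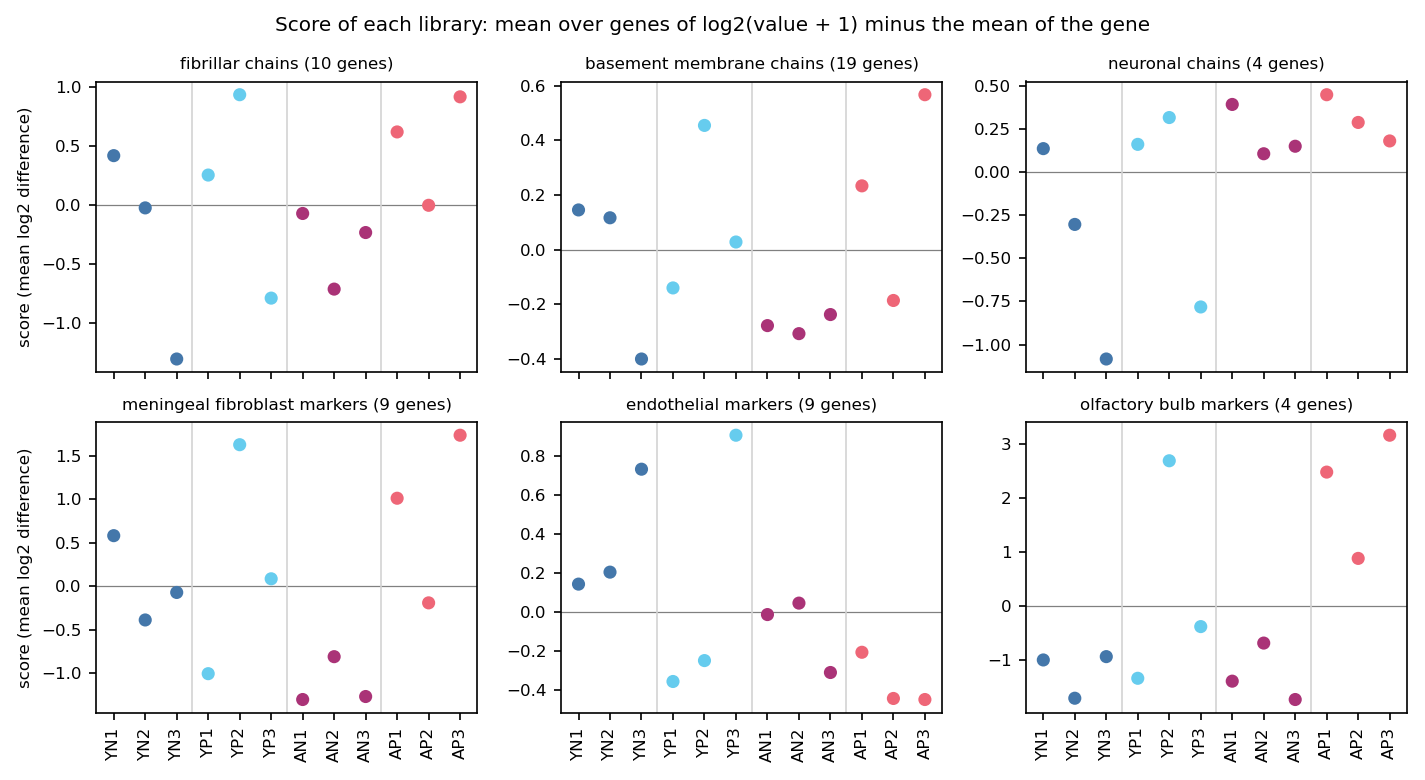
Score of each library (mean over the genes of a list of log2(value + 1) minus the mean of the gene), with 1 dot per library coloured by group, for 3 classes of chains and 3 lists of markers. Fibrillar scores are lowest in YN3 (-1.31) and YP3 (-0.79) and highest in YP2 (0.93) and AP3 (0.92), meningeal scores are highest in YP2 and AP3, and endothelial scores are highest in YN3 and YP3.

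Averaged over the other factor, the age effect gave 28 higher and 21 lower estimates (median 0.06) and the performance effect 40 higher and 9 lower (median 0.30). No chain passed limma or edgeR in either. DESeq2 called Lama3 for performance (0.845% of all genes) and none for age (0.0148% of all genes), and limma with library quality weights called 11 chains for performance (21% of all genes). At an unadjusted p under 0.05, age had 4 chains (against 7.5% of all genes) and performance 12 (against 10.1%), and 1 without YP2, AP1 and AP3. The count for performance was 6 without YP2 and 5 without AP3. The interaction, which asks whether the age change differs between performing and nonperforming rats, had 1 chain at an unadjusted p under 0.05, Col3a1 (against 1.03% of all genes), and no adjusted call by limma, edgeR or DESeq2.

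Partner chains, which assemble into 1 protein or, for Col1a1 and Col3a1, into mixed fibrils, were compared across the 12 libraries on the log2 scale in 11 pairs, with two-sided permutation p-values from 100000 resamples adjusted over the pairs. Col1a1 and Col3a1 had r = 0.98 (rho = 0.97, permutation p = 1e-05 for each, the smallest these resamples give, adjusted 0.00011). The value was 0.97 without YP2 and AP3, the libraries farthest from the median, and 0.97 within groups. Col9a2 and Col9a3 followed with r = 0.90 (rho = 0.85, permutation p = 1e-04 and 0.00088, adjusted 0.00055 and 0.0048), and 0.81 without AP1 and AP3. Col5a1 and Col5a2 had r = 0.85 (rho = 0.78, permutation p = 0.00031 and 0.0044, adjusted 0.0011 and 0.016), which was 0.60 without YN3 and YP3.

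The other 8 pairs did not pass. Col4a1 and Col4a2, which share the promoter shown above, had r = 0.58 (rho = 0.44, permutation p = 0.049 and 0.15, adjusted 0.14 and 0.34), and 0.44 without AN2 and AP2. Their ratio ran from 0.714 in AN1 to 1.67 in YN3. Col6a1 and Col6a2 had r = -0.17 (rho = 0.12, permutation p = 0.59 and 0.72, adjusted 0.65 and 0.72), and 0.70 without AN2 and AN3. The ratio of Col6a1 to Col6a2 was 0.535 in AN1 and 4.24 in AN3, within the same group. Lamb1 and Lamc1 had r = 0.04 (rho = 0.36, permutation p = 0.91 and 0.25, adjusted 0.91 and 0.39). The same 12 libraries enter every pair, so the pairs are not independent of each other. Many genes moved together in these libraries. YN3 and YP3 were the 2 lowest for 19% of all genes, and YP2, AP1 and AP3 the 3 highest for 6.48%. Correlations between unrelated genes were not computed, so passing cannot be read as particular to partner chains.

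**Figure D5:**
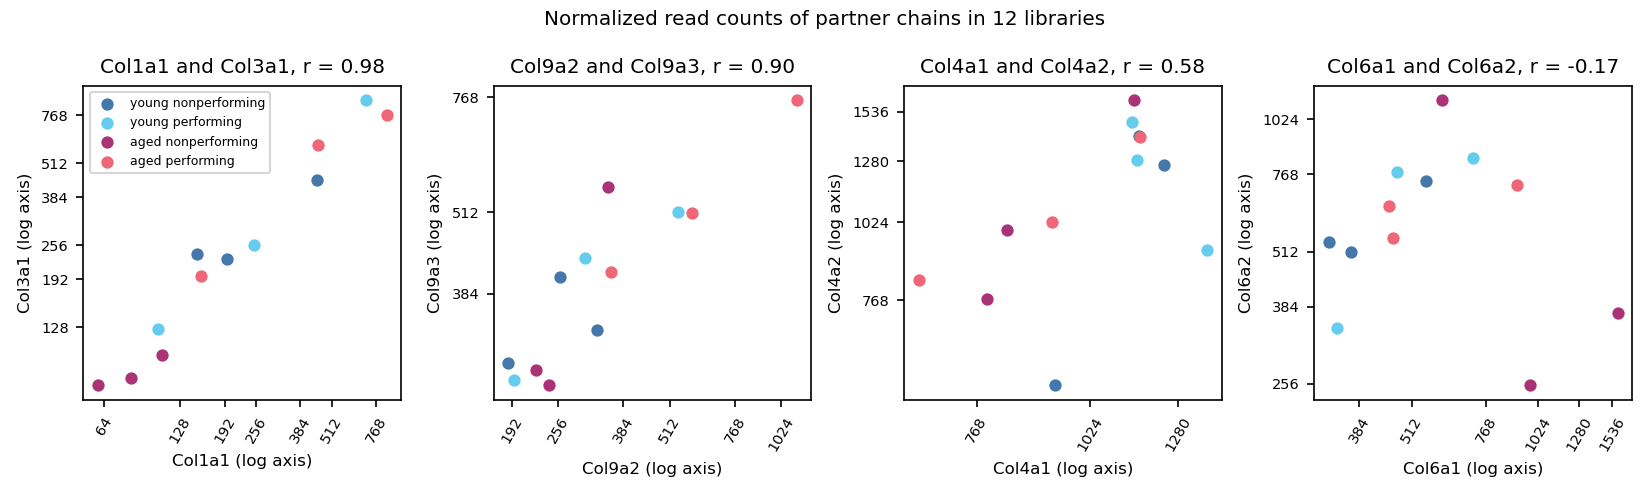
Normalized read counts of 4 pairs of partner chains, 1 dot per library coloured by group, both axes logarithmic. Col1a1 and Col3a1 lie on a line (r = 0.98), Col9a2 and Col9a3 nearly so (r = 0.90), Col4a1 and Col4a2 scatter (r = 0.58), and in the Col6a1 and Col6a2 panel AN2 and AN3 leave the rest (r = -0.17).

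The genes that make, bind, cut and accompany these chains were taken from lists, and none of their members passed the limma test in any comparison. For performance in aged rats, 20 of 28 genes of collagen making were higher (median 0.20), 9 of 13 receptors (0.20), 10 of 16 breakdown enzymes and inhibitors (0.14) and 13 of 16 other matrix proteins (0.70). For age in nonperforming rats the counts were 13 of 28 (median -0.01), 8 of 13 (0.15), 7 of 16 (-0.07) and 4 of 16 (-0.48). For age in performing rats they were 14 of 28 (-0.001), 9 of 13 (0.22), 10 of 16 (0.03) and 11 of 16 (0.07), and for performance in young rats 21 of 28 (0.15), 10 of 13 (0.10), 9 of 16 (0.04) and 9 of 16 (0.09).

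Pcolce, the enhancer of procollagen C-proteinase, was at 16.2, 41.1 and 15.8 in AN1 to AN3 and 127, 46.3 and 171 in AP1 to AP3. Its difference was 2.14 (SE 0.66) for performance in aged rats, or 1.04 without YP2, AP1 and AP3, and -1.89 (SE 0.66) for age in nonperforming rats, a comparison that shares the aged nonperforming libraries. Serpinh1, the collagen chaperone HSP47, differed by -0.55 (SE 0.22) with age in nonperforming rats and by -0.30 without YN3.

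The matrix genes Vtn (vitronectin) and Fmod (fibromodulin, a regulator of fibrils) were high in YP2, AP1 and AP3. Fmod had its 3 highest values there, at 658, 406 and 892, and Vtn was at 1355, 939 and 1781, with YN3 (1039) and YP3 (1008) between. With performance in aged rats Vtn was higher by 1.67 (SE 0.44) and Fmod by 2.46 (SE 0.71), and without these 3 libraries by 0.83 and 1.48. Vtn and Lum (lumican) differed by -1.37 (SE 0.44) and -1.67 (SE 0.62) with age in nonperforming rats.

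Mmp8, the neutrophil collagenase, was at 313, 10.5 and 41.5 in AN1 to AN3 and no higher than 7.7 in any other group. Its change with age in nonperforming rats was 3.73 (SE 1.0), or 2.45 without AN1. Mmp9, a gelatinase, differed by 0.96 (SE 0.35) with age in nonperforming rats and by -1.15 (SE 0.35) with performance in aged rats, the latter -0.40 without YP2, AP1 and AP3. Blood markers were also high in some of these libraries, with the hemoglobin gene Hbb at 2763, 798 and 16903 in AN1 to AN3. All 4 blood markers were higher with age in nonperforming rats (median 1.96) and all 4 were lower with performance in aged rats (median -2.54). Their summed level ranged from 1326 to 14698 in young nonperforming, 2099 to 8140 in young performing, 2533 to 38167 in aged nonperforming and 1337 to 3074 in aged performing libraries, and their part in the Mmp8 and Mmp9 values was not tested.

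Of the receptors, Itga10, an integrin chain for collagen, was at 410.4, 369 and 545 in YP2, AP1 and AP3 and between 8.57 and 67.6 in the other 9 libraries. It was higher with performance in aged rats by 3.32 (SE 1.08), and by 1.51 without those 3. Itga3, an integrin chain for laminin, was lower (-0.43, SE 0.15, and -0.18 without those 3). Ddr1, a collagen receptor kinase, differed by 0.61 (SE 0.25) with age in nonperforming rats, a value that was 0.29 without AN3 and 0.92 without AN1. Itga11 differed by 1.13 (SE 0.52) in that comparison and by 0.43 without YN3.

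With age in performing rats the inhibitory collagen receptor gene Lair1 was at 4.93, 8.28 and 4.46 in YP1 to YP3 and 10.3, 48.6 and 12.8 in AP1 to AP3 (1.56, SE 0.59). Without AP2 the difference of Lair1 was 0.90. AP2 was also the library highest in the microglia gene Aif1, at 2362 against 724 and 778 in AP1 and AP3, and the part of this in the Lair1 value was not tested. Mmp17 differed by -0.55 (SE 0.23) and the cross-linking enzyme gene Loxl3 by 0.46 (SE 0.21) in the same comparison. In young rats Spp1 (osteopontin) was at 20.7, 1219 and 151 in YP1 to YP3 and 6.74, 2.14 and 30.7 in YN1 to YN3 (4.12, SE 1.52), a difference of 2.65 without YP2. Timp2, an inhibitor of matrix metalloproteinases, differed by -0.32 (SE 0.13) with performance in young rats.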

How the data were processed

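The table deposited by the authors held normalized read counts (a signal: the count of a gene divided by the size factor of its library) for 15939 genes in 12 libraries. Per the submitters' processing notes, Trimmomatic, Bowtie2, TopHat2, HTSeq and DESeq2 were used with the rat build Rnor_6.0, and their versions and settings are not given in the sources used here. Per the labels' protocols, stranded mRNA libraries (TruSeq) were made from 1000 ng of RNA. All values were whole multiples of the smallest value of the library within 0.01, so the reads were recovered. No genome of that build was given, so no gene positions on it are printed.

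Genes for which 3 or more libraries reached a value of 10 entered a single limma fit (limma 3.58.1, R 4.3.3, trend on) of 4 group means on log2(value + 1), with residual degrees of freedom 8 and two-sided p-values adjusted by Benjamini and Hochberg over 13496 genes. Fold changes on this scale understate those of low genes. edgeR 4.0.16 and DESeq2 1.42.0 were run on the recovered reads as alternatives, beside other pseudocounts, filters, scalings, library quality weights and left-out libraries. The sample titles of YN1 and YP1, both young, began with VP and those of all other libraries with U. This prefix was also run as a covariate, though it cannot be fully separated from age. The script was tested on simulated data. The members, the classes, the lists and the marker genes were chosen with earlier results of these data known. Every chain could be named. Values in every library are given for Col1a1, Col3a1, Col4a1, Col4a2, Lama1, Lama2, Col18a1, Col19a1, Col23a1 and Col24a1 and for the 3 chains with the smallest p in each of the 4 comparisons within a level. Of the other lists, named genes come from the 2 with the smallest p in each. The values of 1 of these chains are not reported here. Other chains were added after their values were seen.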

Additional observations from a re-analysis of the deposited data

How the results depend on the processing

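No chain passed in the other 4 comparisons or the interaction under any alternative run. In performance in aged rats and performance averaged over age, calls came only from DESeq2 on the recovered reads (3 chains and 1 chain) and library quality weights (7 and 11 chains), and no other alternative, none of the left-out libraries included, gave a call. The alternatives without YN3 and YP3, and without these and YP2, AP1 and AP3, were chosen after seeing the data. YN3 and YP3 were low in many fibrillar chains, so leaving them out raises young levels of such chains by construction, and the cause of the other shifts was not tested.

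The fibrillar median for age in nonperforming rats was -0.42 in both of these, and for age in performing rats -0.22 and -0.38. The neuronal median was 0.20 in both for age in nonperforming rats, and 0.021 and 0.044 for age in performing rats, where library quality weights gave 0.090. The basement membrane median for performance in young rats was -0.15 with library quality weights and -0.26 without all 5 libraries, and for performance in aged rats -0.027 without YP2, AP1 and AP3 and without all 5. Leaving out each library in turn gave fibrillar medians from -0.42 to 0.62 for age in nonperforming and from -0.22 to 0.85 for age in performing rats. It gave neuronal medians from 0.20 to 0.84 for age in nonperforming rats, 0.021 to 0.98 for age in performing rats and -0.040 to 0.76 for performance in young rats. Where a group was left with 1 library, that library was assumed to vary like the others. With the title prefix as a covariate, the sign changed for 6 of 49 chains for age in performing rats. It changed for 5 chains for the averaged age effect, for 1 for age in nonperforming rats and for none in the other comparisons. At 3 libraries a group, the spread between libraries limits what can be called. No paired analysis was possible because the labels state no pairs.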
